A study of Mus musculus with 14 samples.

Results

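The T-cell acute lymphoblastic leukaemias (T-ALL) compared here arose in 2 mouse models that both start Lmo2 in haematopoietic stem and progenitor cells and differ in how long the transgene is meant to stay on. Sca1-Lmo2 mice carry a cassette with TdTomato and mouse Lmo2 in a Sca1 vector, which is meant to restrict Lmo2 to stem and progenitor cells. The paper also describes this promoter as active in some T-cell precursors, with mosaic expression in thymic T cells. Rosa26-Lmo2+Sca1-Cre mice carry mouse Lmo2 with eGFP in the Rosa26 locus, where Sca1-Cre opens it in stem and progenitor cells and every descendant keeps the opened allele. The bulk RNA-seq set holds 14 libraries in 5 groups, and the comparison rests on 4 libraries of Sca1-Lmo2 tumours, from mice of 7 to 8 months, and 3 libraries of Rosa26-Lmo2+Sca1-Cre tumours, from mice of 9 months. The 4 libraries of WT thymus, from mice of 4 months with neither transgene, give the normal level. All groups share the mixed C57BL/6 and CBA background. GEO's labels give frozen thymus and the published methods give blasts, so the share of tumour cells in each library is not known. All 17087 of 46946 genes with 1 CPM or more in 3 or more of the 14 libraries were compared. CPM, counts scaled to the library total, are given after TMM scaling, a library-wise factor that sets the bulk of genes level between libraries.

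LMO2 is a bridging protein without DNA binding of its own, which joins TAL1 or LYL1, E proteins, GATA factors and LDB1 on DNA. It is needed in blood stem cells, is normally turned off as thymocytes commit to the T lineage, and is a known T-ALL oncogene in mouse and human. In mouse thymocytes that keep it on, a set of stem and progenitor genes such as Hhex, Lyl1, Kit and Erg is known to come up before leukaemia appears.

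The libraries were of even depth but not of even kind. Totals in both models lay between 43458160 and 47667663 counts. Each tumour was led by 1 T-cell receptor beta V segment, which took 50.6 to 86.3% of V-segment counts in Sca1-Lmo2 and 78.4 to 92.6% in Rosa26-Lmo2+Sca1-Cre, against 12.5 to 13.5% in WT. Sca1-Lmo2 replicates 1 and 3 shared their leading segments: Trbv5 took 82.3% (95% Wilson interval 81.9 to 82.7) and 86.3% (85.9 to 86.7), and Trbj2-1 took 86.0% and 88.8%. They also had the highest correlation of any tumour pair (Spearman 0.966) and, at 210, the lowest chi-square per degree of freedom of any pair within a model (234 to 613 in the others). They are labelled as separate samples, with ages of 7 months for replicate 1 and 8 months for replicate 3, and were kept as such. Results are also given with the pair merged into 1 sample. Whether they hold 1 clone was not tested. Rosa26-Lmo2+Sca1-Cre replicate 3 held 0.902 background reads per kilobase of silent olfactory and vomeronasal receptor genes, against 0.0201 to 0.0461 in the other 6 tumour libraries. Copies of mitochondrial genes took 2.16 to 3.18% of counts in Sca1-Lmo2 and 8.57, 9.35 and 3.73% in Rosa26-Lmo2+Sca1-Cre. By Xist and Y-linked counts each model held both sexes.

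Lmo2 itself (chromosome 2, 103957986 to 103981878, mm10) was not lower in the Sca1-Lmo2 libraries. The paper reports its loss in Sca1-Lmo2 tumour cells by immunohistochemistry, and by real-time PCR and Western blot of sorted leukaemic cells. Non-tumoral T cells of diseased thymuses kept mosaic expression there. The counts here cover the whole gene span in libraries of unknown tumour cell share. They do not show whether tumour cells keep Lmo2. Lmo2 stood at 10.2, 17.5, 10.3 and 12.2 CPM in Sca1-Lmo2 and at 10.1, 5.82 and 8.33 CPM in Rosa26-Lmo2+Sca1-Cre, against 1.62 to 4.42 CPM in WT. The lowest Sca1-Lmo2 library lay just above the highest Rosa26-Lmo2+Sca1-Cre library. The log2 fold change of 0.63 (SE 0.38, adjusted p = 0.271) did not pass the test, and it stayed between 0.43 and 0.83 with any 1 library left out. Reads of the transgene, which holds the mouse coding sequence, and of the endogenous gene fall on the same gene and cannot be told apart here, and the span also holds the antisense gene 4931422A03Rik. The models are therefore called by genotype below. Ly6a, which encodes Sca1, stood at 18.8, 37.2, 24.8 and 55.4 CPM in Sca1-Lmo2 and 40.6, 15.6 and 14.3 CPM in Rosa26-Lmo2+Sca1-Cre. These libraries overlapped, and the log2 fold change of 0.54 (SE 0.62, adjusted p = 0.582) did not pass.

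Between the models, 1690 genes changed at an adjusted p under 0.05, which is 9.89% of those tested. Of these, 614 (3.59%) were higher and 1076 (6.3%) lower in Sca1-Lmo2, and 1433 (8.39%) differed at least 2-fold. The libraries of both models did not overlap for 3342 genes (19.6% of those tested, 9.66% higher and 9.9% lower in Sca1-Lmo2), and 1483 of the 1690 called genes were among them. Scaling by library totals instead of TMM moved the median of all genes from -0.005 to 0.202 on the log2 scale. It turned the split to 793 higher and 722 lower, so 52.3% of calls were higher in place of 36.3%. The count rests on a spread shared with the other groups of the fit. The biological coefficient of variation was 0.549 within Sca1-Lmo2 and 0.617 within Rosa26-Lmo2+Sca1-Cre, against 0.299 within WT. When the 7 tumour libraries alone were fitted, edgeR called 0 genes (smallest adjusted p = 0.0562, with 3915 genes at an unadjusted p under 0.05), limma-voom called 0 and DESeq2 called 2125. With 1 library left out the count lay between 336, without Sca1-Lmo2 replicate 1, and 2161, without Rosa26-Lmo2+Sca1-Cre replicate 3. It was 945 without Sca1-Lmo2 replicate 2 and 1104 without Rosa26-Lmo2+Sca1-Cre replicate 2. The genes called in all 7 such fits and also with Sca1-Lmo2 replicates 1 and 3 merged numbered 318, of which 95 were higher and 223 lower, and are said below to have held. Against WT, 3815 genes differed in Sca1-Lmo2 (22.3%, 12.1% higher and 10.2% lower) and 4589 in Rosa26-Lmo2+Sca1-Cre (26.9%, 16.5% higher and 10.4% lower), comparisons that share the WT libraries.

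**Figure D1:**
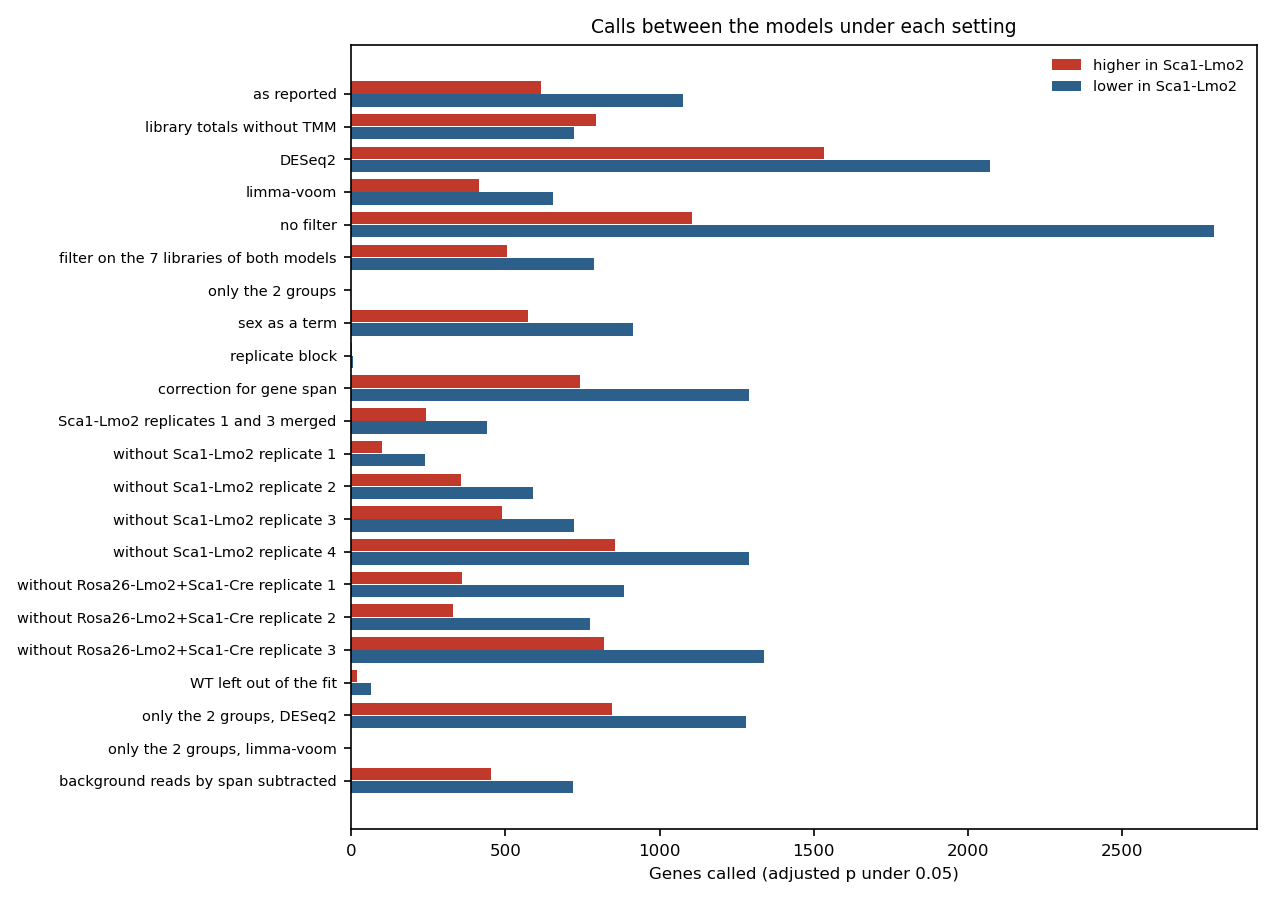
Number of genes called at an adjusted p under 0.05 (x axis) for Sca1-Lmo2 over Rosa26-Lmo2+Sca1-Cre under each setting (y axis), with genes higher in Sca1-Lmo2 in red and lower in blue. The reported fit calls 614 and 1076 genes, the fit of the 7 tumour libraries alone calls 0 with edgeR, and the fit without Sca1-Lmo2 replicate 1 calls 98 and 238.

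Of the stem and progenitor genes known to follow LMO2 in leukaemic thymocytes, Erg, Hhex, Cd34 and Bcl2a1b were lower in Sca1-Lmo2. Of 13 listed, 8 could be tested, and of these the 4 named fell (50%, against 6.3% of all genes) and 0 rose. The median log2 fold change of the 8 came to -2.32, against -0.005 over all genes tested, and without Sca1-Lmo2 replicate 1 only 1 of the 8, Erg, passed. Erg (chromosome 16, 95359169 to 95586593), an ETS transcription factor of stem cells, stood at 0.0649, 0.0404, 0.0226 and 0.145 CPM in Sca1-Lmo2 and at 0.338, 4.85 and 26.5 CPM in Rosa26-Lmo2+Sca1-Cre, against 0.805 to 1.23 CPM in WT. All 4 Sca1-Lmo2 libraries were below every WT library, while those of Rosa26-Lmo2+Sca1-Cre lay on both sides of WT. The difference was -7.21 on the log2 scale (SE 1.22, adjusted p = 0.0103) and held. In replicate 3 of Rosa26-Lmo2+Sca1-Cre, 4.09 CPM would be expected from background reads over the span of this gene.

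Hhex, a homeobox transcription factor of early blood progenitors, stood at 0.519, 0.627, 0.723 and 0.373 CPM in Sca1-Lmo2 and at 0.563, 5.14 and 15.2 CPM in Rosa26-Lmo2+Sca1-Cre. Replicate 1 of Rosa26-Lmo2+Sca1-Cre lay within the Sca1-Lmo2 range and the other 2 above it (log2 fold change -3.63, adjusted p = 0.022). It no longer passed with Sca1-Lmo2 replicate 1 left out (0.0702), with Rosa26-Lmo2+Sca1-Cre replicate 3 left out (0.0557) or with the pair merged (0.0516). Cd34, a surface sialomucin of progenitors, stood at 0.108, 0.162, 0.226 and 0.601 CPM in Sca1-Lmo2 and 1.27, 2.31 and 2.03 CPM in Rosa26-Lmo2+Sca1-Cre, with no overlap (log2 fold change -2.76, adjusted p = 0.0201, and 0.0608 without Sca1-Lmo2 replicate 1). Its span overlaps that of Gm16897, so its reads are uncertain. Bcl2a1b, a survival protein of the BCL2 family, stood at 1.36, 1.33, 2.1 and 3.75 CPM in Sca1-Lmo2 and 23.8, 18.5 and 7.78 CPM in Rosa26-Lmo2+Sca1-Cre. It has near-identical copies between which reads may be split, and its call (log2 fold change -2.96, adjusted p = 0.0172) was lost without Sca1-Lmo2 replicate 1 (0.0592).

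The other tested members did not pass. Kit, the stem cell factor receptor, had a log2 fold change of 1.20 (adjusted p = 0.344) and Lyl1, a partner of LMO2, 0.75 (adjusted p = 0.525), and both had overlapping libraries. Nfe2, a leucine zipper transcription factor of blood cells, had -1.06 (adjusted p = 0.334). Among 17 tested genes of early progenitors and the first thymocyte stages, 4 fell (23.5%, against 6.3% of all genes) and 0 rose, with a median of -0.20. Without Sca1-Lmo2 replicate 1, 1 passed. Of these 4, Erg, Hhex and Cd34 are named above, and Spi1, a myeloid and progenitor transcription factor, fell by 2.17 on the log2 scale (adjusted p = 0.0233). Spi1 did not pass without Sca1-Lmo2 replicate 1 (0.0704) or 2 (0.0537). By edgeR's test 0 of 16 tested genes of the LMO2 complex and its partners passed in either direction, against 9.89% of all genes. Their median was 0.23, with 1 at an unadjusted p under 0.05, and DESeq2 and limma-voom called 0 as well. In bulk tissue, fewer cells of a type and less RNA per cell cannot be told apart, and markers of several other cell types, given below, were also lower in Sca1-Lmo2.

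**Figure D2:**
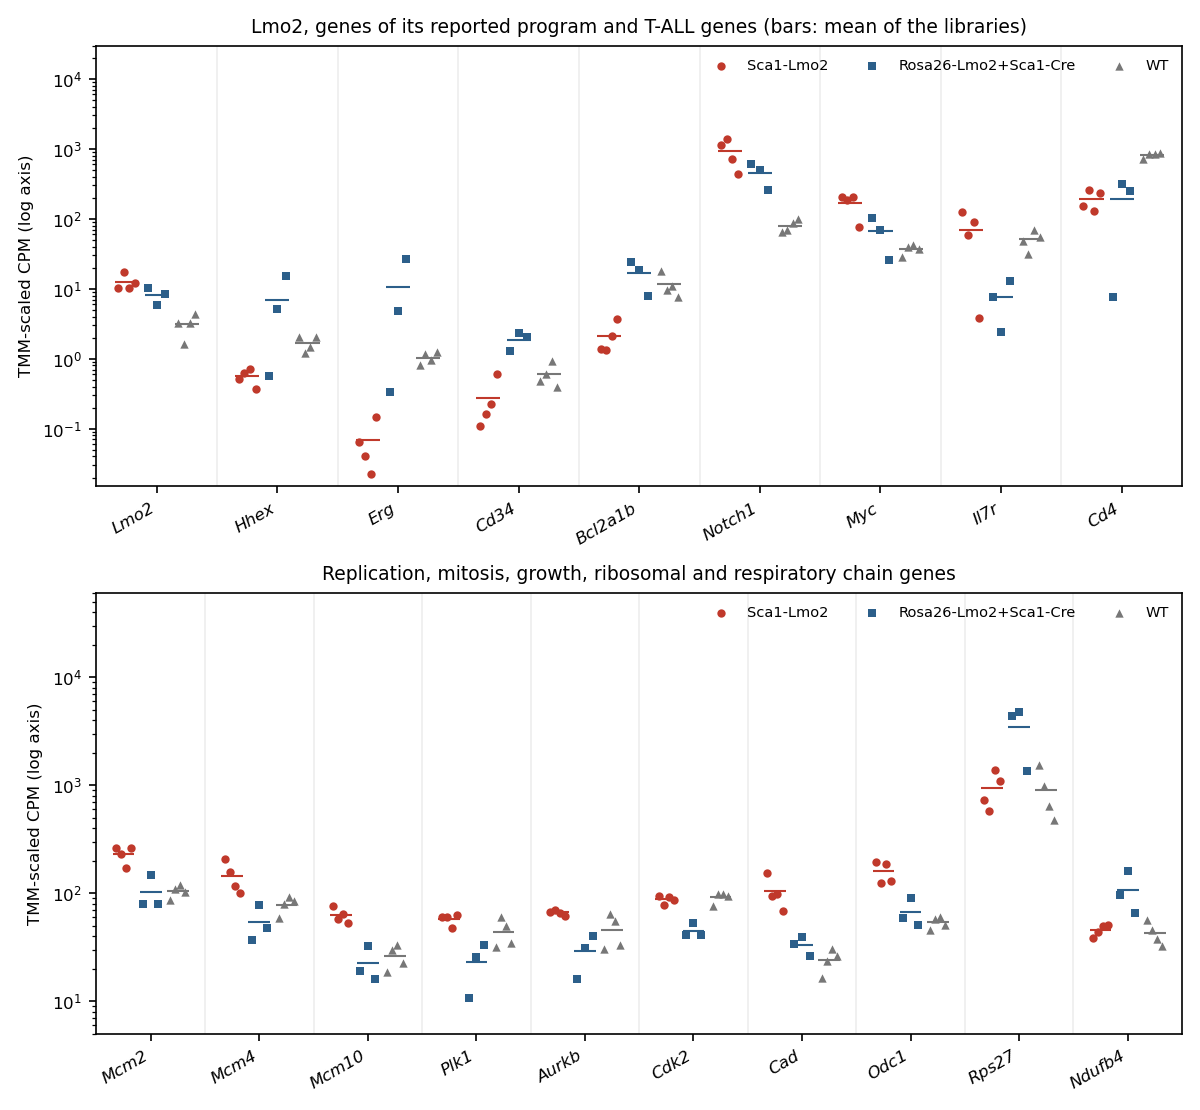
TMM-scaled CPM (log axis) of each library, as points, with the mean as a bar, for Sca1-Lmo2 (red, left), Rosa26-Lmo2+Sca1-Cre (blue, middle) and WT (grey, right). The upper panel holds Lmo2, genes of its reported program and T-ALL genes, and the lower panel genes of replication, mitosis, growth, ribosomes and the respiratory chain. Erg lies between 0.0226 and 0.145 CPM in Sca1-Lmo2 and reaches 26.5 CPM in Rosa26-Lmo2+Sca1-Cre, and Mcm10 is at 53.2 CPM or more in each Sca1-Lmo2 library and at 33.4 CPM or less in the others.

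Some genes of DNA replication were higher in Sca1-Lmo2. Of 33 tested, 7 rose (21.2%, against 3.59% of all genes), 0 fell and 26 did not pass, with a median log2 fold change of 0.715. The 7 were Mcm2, Mcm3, Mcm4, Mcm5 and Mcm7, subunits of the helicase that opens DNA, Cdc6, which loads it, and Mcm10, which helps to start it. Mcm10 stood at 75.8, 58, 63.8 and 53.2 CPM in Sca1-Lmo2 and 19, 32.3 and 15.9 CPM in Rosa26-Lmo2+Sca1-Cre, with 18.8 to 33.4 CPM in WT. Every Sca1-Lmo2 library was above all others, and the log2 fold change of 1.49 (SE 0.28, adjusted p = 0.013) held. The other 6 had log2 fold changes between 1.13 (Mcm5 and Mcm7) and 1.61 (Cdc6), with no overlap of libraries, and adjusted p between 0.0195 (Mcm4) and 0.0368 (Mcm3). None of these 6 held. The count of 7 became 1 without Sca1-Lmo2 replicate 1, 4 without replicate 3, 3 without Rosa26-Lmo2+Sca1-Cre replicate 1, 4 without replicate 3 and 14 without replicate 2, and it was 3 with the pair merged. With the 7 tumour libraries alone it was 0 by edgeR and 7 by DESeq2. Scaled by library totals instead of TMM, 18 rose, and with DESeq2 on all groups 13 did. Those 2 fits called 793 and 1532 of all 17087 genes higher.

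The stretches upstream of the called replication genes are shown because these genes moved together and E2F factors are known to drive them in cycling cells. Promoters are from RefSeq on GRCm38.p6, the 250 bases before each annotated start, and 26 of the 33 genes had an entry, among them 6 of the 7 called ones, Mcm4 being the exception. The bases after the start used for Mcm5 were not found in a GENCODE transcript of that gene, so its start is uncertain. Capitals mark an E2F-type match (TTTCCCGC or TTTGGCGC, either strand) or the letters CCAAT on either strand. The first 3 are those with an E2F-type match (of 2 entries for Mcm7, the one with it), on the strand of the gene, and the last belongs to the gene whose call held.
Mcm5 (chr8:75109259-75109508, plus strand): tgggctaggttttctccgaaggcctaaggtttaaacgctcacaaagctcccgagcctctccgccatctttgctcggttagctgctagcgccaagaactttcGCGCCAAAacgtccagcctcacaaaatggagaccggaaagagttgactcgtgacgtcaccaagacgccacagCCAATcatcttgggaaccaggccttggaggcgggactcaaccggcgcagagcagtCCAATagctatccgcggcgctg
Mcm7 (chr5:138171884-138172133, minus strand): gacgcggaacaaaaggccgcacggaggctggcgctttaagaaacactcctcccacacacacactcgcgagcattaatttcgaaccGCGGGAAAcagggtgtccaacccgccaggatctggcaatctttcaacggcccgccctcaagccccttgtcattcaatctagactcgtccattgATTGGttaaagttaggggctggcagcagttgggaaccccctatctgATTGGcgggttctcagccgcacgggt
Cdc6 (chr11:98907901-98908150, plus strand): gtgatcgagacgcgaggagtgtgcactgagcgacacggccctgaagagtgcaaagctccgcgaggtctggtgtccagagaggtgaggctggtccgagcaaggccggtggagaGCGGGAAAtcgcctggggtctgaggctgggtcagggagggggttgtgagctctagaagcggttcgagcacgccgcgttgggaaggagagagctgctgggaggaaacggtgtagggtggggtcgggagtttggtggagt
Mcm10 (chr2:5012792-5013041, minus strand): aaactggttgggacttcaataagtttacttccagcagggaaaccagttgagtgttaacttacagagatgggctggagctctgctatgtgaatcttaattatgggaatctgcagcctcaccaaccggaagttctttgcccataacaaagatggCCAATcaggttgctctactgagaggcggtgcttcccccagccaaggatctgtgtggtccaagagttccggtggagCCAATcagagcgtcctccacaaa
E2F-type letters stood in 6 of the 26 promoters of the list (23.1%) and in 407 of the 27025 genes with a promoter entry (1.51%). CCAAT stood in 17 of the 26 (65.4%) and in 10133 of the 27025 (37.5%). Among the 6 called genes with an entry the counts were 3 and 5. Of the other motifs searched, CACGTG stood in 2 of the 26 (7.69%, against 6.86% of all genes) and AGATAA stood in 1 (3.85%, against 11.4%), and neither stood in any of the 6 called genes. A match describes the letters and does not show a site in use.

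Other lists of cell cycle genes gave fewer calls. Of 30 tested mitosis genes, 2 rose (6.67%, against 3.59% of all genes) and 0 fell (median 0.79): Plk1 and Aurkb, kinases of mitosis. The log2 fold change was positive for 29 of the 30, against 8484 of all 17087 genes. For 13 of the 30 every Sca1-Lmo2 library was above the other model, as for 9.66% of all genes. Plk1 stood at 59.6, 60.8, 47.1 and 63.3 CPM in Sca1-Lmo2 and 10.8, 25.5 and 33.5 CPM in Rosa26-Lmo2+Sca1-Cre, with 31.4 to 59.9 CPM in WT (log2 fold change 1.31, adjusted p = 0.0353). Neither call remained with the pair merged, without Sca1-Lmo2 replicate 1 (Plk1 0.0857, Aurkb 0.0906) or 2 (0.0641 and 0.0716), or without Rosa26-Lmo2+Sca1-Cre replicate 1 (0.0579 and 0.0903) or 2 (0.07 and 0.0791), and Aurkb was also lost without Sca1-Lmo2 replicate 3 (0.0592). Without Rosa26-Lmo2+Sca1-Cre replicate 3, 8 mitosis genes passed, in a fit that called 4.8% of all genes higher. Cdk2, the kinase of S phase entry, stood at 94.8, 77.3, 92.4 and 86.8 CPM in Sca1-Lmo2 and 41.3, 52.6 and 40.6 CPM in Rosa26-Lmo2+Sca1-Cre, against 76.7 to 98.6 CPM in WT. Sca1-Lmo2 thus lay at the WT level (log2 fold change over WT -0.06, adjusted p = 0.834) and Rosa26-Lmo2+Sca1-Cre below it (-1.03, adjusted p = 0.00639). Between the models the difference was 0.97 on the log2 scale (SE 0.19, adjusted p = 0.015) and held.

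Cdkn1c, an inhibitor of cyclin-dependent kinases, was also higher, at 18.4, 1.62, 22.1 and 31.6 CPM in Sca1-Lmo2 against 1.32, 1.19 and 0.937 CPM in Rosa26-Lmo2+Sca1-Cre. Replicate 2 of Sca1-Lmo2 was close to the other model and the remaining 3 far above it (log2 fold change 4.00, SE 0.81, adjusted p = 0.0156, held). Cdkn2b, another inhibitor, was lower, at 0.13, 0.465, 0.0903 and 0.352 CPM in Sca1-Lmo2 and 1.01, 1.57 and 2.99 CPM in Rosa26-Lmo2+Sca1-Cre (log2 fold change -2.83, adjusted p = 0.0376). It did not pass without Sca1-Lmo2 replicate 1 (0.107) or 3 (0.067) and without Rosa26-Lmo2+Sca1-Cre replicate 2 (0.0587) or 3 (0.076). In the list of CDK inhibitors, G1 cyclins and RB family, 4 of 25 rose (16%, against 3.59% of all genes). In that list 1 fell (4%, against 6.3%), and the median was 0.42. The number that rose was 2 without Sca1-Lmo2 replicate 1 or 2 or without Rosa26-Lmo2+Sca1-Cre replicate 3.

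Some genes of biosynthesis were higher as well. Of 34 MYC targets and ribosome biogenesis genes, 6 rose (17.6%, against 3.59% of all genes), 0 fell and 28 did not pass (median 0.45). Of 28 genes of nucleotide and one-carbon synthesis 4 rose (14.3%), 1 fell and 23 did not pass (median 0.70). Scaled by library totals, 12 and 14 rose, in a fit that called 793 of all 17087 genes higher. Cad, which carries the first steps of pyrimidine synthesis, stood at 155, 94.8, 97.5 and 67.9 CPM in Sca1-Lmo2 and 34, 39 and 26 CPM in Rosa26-Lmo2+Sca1-Cre. The libraries did not overlap, and the log2 fold change of 1.65 (SE 0.29, adjusted p = 0.0114) held. Slc7a5, a transporter of large neutral amino acids, stood at 140, 64.2, 90 and 73.7 CPM in Sca1-Lmo2 and 28.1, 18.3 and 25.3 CPM in Rosa26-Lmo2+Sca1-Cre, against 9.64 to 18.9 CPM in WT. Its log2 fold change of 1.95 (SE 0.32, adjusted p = 0.00952) held, though its span overlaps that of Gm20388 and its counts are uncertain to that extent. Without Sca1-Lmo2 replicate 1, 1 gene passed in each of these lists, and with the pair merged 3 rose in each. Without Rosa26-Lmo2+Sca1-Cre replicate 2 the counts higher were 2 and 7, without Sca1-Lmo2 replicate 2 they were 3 and 4, without Sca1-Lmo2 replicate 4 they were 8 and 7, and without Rosa26-Lmo2+Sca1-Cre replicate 1 they were 7 and 2.

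Genes of the ribosome and the respiratory chain leaned lower in Sca1-Lmo2, but few ribosomal ones passed. Of 77 cytosolic ribosomal protein genes 4 were called lower and 0 higher, with a median of -0.97, and these 5.19% do not exceed the 6.3% of all genes called lower. Of 59 nuclear genes of oxidative phosphorylation 10 were lower (16.9%), 0 higher and 49 did not pass, with a median of -0.73. The log2 fold change was negative for 76 of the 77 and 47 of the 59, against 8603 of all 17087 genes. At an unadjusted p under 0.05 by edgeR's test there were 36, 30 and 5257. Summed ribosomal protein genes took 76604 to 156830 CPM in Sca1-Lmo2 and 96394 to 276220 CPM in Rosa26-Lmo2+Sca1-Cre, and the oxidative phosphorylation genes 7629.5 to 10692 CPM in Sca1-Lmo2 and 9196.1 to 20729 CPM in Rosa26-Lmo2+Sca1-Cre, so the ranges overlapped for both. Ndufb4, a subunit of respiratory complex I, averaged 45.8 ± 5.44 CPM in Sca1-Lmo2 and 107 ± 48.4 CPM in Rosa26-Lmo2+Sca1-Cre (SD, n = 4 and 3), without overlap. Without Rosa26-Lmo2+Sca1-Cre replicate 3, which was the lowest of its group for these genes, 32 ribosomal and 26 oxidative phosphorylation genes passed, all lower. That fit called 7.84% of all genes lower. With DESeq2 27 of each list passed, in a fit that called 2071 of all 17087 genes lower. With the pair merged, 0 ribosomal and 1 oxidative phosphorylation genes passed. In the other 6 fits with 1 library left out, 0 to 2 ribosomal and 0 to 8 oxidative phosphorylation genes passed, with 0 of either without Rosa26-Lmo2+Sca1-Cre replicate 2 or Sca1-Lmo2 replicate 1. The mitochondrial copies given above were likewise high in Rosa26-Lmo2+Sca1-Cre replicates 1 and 2, and the part of library make-up in these differences was not tested.

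Genes that mark T-cell stage gave few calls. Cd3e, a chain of the T-cell receptor complex that marks the labelled tissue, stood at 273, 343, 295 and 269 CPM in Sca1-Lmo2 and 242, 240 and 236 CPM in Rosa26-Lmo2+Sca1-Cre, against 330 to 375 CPM in WT. The models did not overlap, but the log2 fold change of 0.30 (SE 0.19, adjusted p = 0.291) did not pass. By edgeR's test, 0 of 23 T-cell identity genes, 0 of 17 NOTCH1 target genes and 0 of 19 genes of RAS-ERK output passed. Over all genes 9.89% passed in either direction, and at that share lists this short would hold few calls. Medians of these lists were 0.12, 0.32 and 0.87, against -0.005 over all genes. At an unadjusted p under 0.05 there were 4, 3 and 5. DESeq2 called 1 T-cell identity gene higher, 2 NOTCH1 targets higher and 1 lower, and 1 RAS-ERK gene higher and 2 lower, and limma-voom called 0. With 1 library left out, up to 2 T-cell identity genes, 3 NOTCH1 targets and 2 RAS-ERK genes passed. Of the 20 genes the study turns on, 1 rose, 1 fell and 18 did not pass, where 3.59% of all genes rose and 6.3% fell. Notch1 stood at 1120, 1400, 709 and 431 CPM in Sca1-Lmo2 and 606, 501 and 259 CPM in Rosa26-Lmo2+Sca1-Cre, against 64.9 to 98.2 CPM in WT. Both models were far above WT and overlapped each other (log2 fold change 1.01, SE 0.50, adjusted p = 0.193). Myc stood at 205, 186, 203 and 76.8 CPM in Sca1-Lmo2 and 104, 69.1 and 25.7 CPM in Rosa26-Lmo2+Sca1-Cre, with replicate 4 of Sca1-Lmo2 inside the other range (log2 fold change 1.34, adjusted p = 0.0673).

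Cd4 stood at 155, 262, 129 and 231 CPM in Sca1-Lmo2 and 7.72, 319 and 253 CPM in Rosa26-Lmo2+Sca1-Cre, against 706 to 865 CPM in WT, and overlapped (adjusted p = 0.998). Trp53, the gene of p53, was higher (log2 fold change 0.83, adjusted p = 0.0379), a call lost in 5 of the 7 left-out fits with adjusted p up to 0.108. These were the fits without Sca1-Lmo2 replicates 1, 2 and 3 and without Rosa26-Lmo2+Sca1-Cre replicates 2 and 3 (0.104, 0.0641, 0.0661, 0.108 and 0.0753).

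Il7r, the receptor chain through which interleukin 7 keeps thymocytes alive, stood at 127, 57.8, 90.7 and 3.79 CPM in Sca1-Lmo2 and 7.49, 2.41 and 12.7 CPM in Rosa26-Lmo2+Sca1-Cre, against 31.7 to 69.3 CPM in WT. Replicates 1 to 3 of Sca1-Lmo2 were far above the other model and replicate 4 within it. The log2 fold change of 3.21 (SE 0.89, adjusted p = 0.0425) was lost without Sca1-Lmo2 replicate 1 (0.109), 2 (0.0632) or 3 (0.065) and without Rosa26-Lmo2+Sca1-Cre replicate 1 (0.0968) or 2 (0.106). Patz1, a zinc finger protein that takes part in Cd4 and Cd8 regulation, stood at 189, 171, 197 and 179 CPM in Sca1-Lmo2 and 109, 106 and 101 CPM in Rosa26-Lmo2+Sca1-Cre, with 116 to 129 CPM in WT. Its libraries were tight and did not overlap (log2 fold change 0.81, SE 0.16, adjusted p = 0.0156, held), though its span overlaps Gm12592 and Gm11944.

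Of the genes with the smallest adjusted p, Tle4 (chromosome 19, 14448072 to 14598051), a corepressor of the Groucho family, came first. It stood at 1.06, 1.35, 0.452 and 0.808 CPM in Sca1-Lmo2 and 40.3, 15.5 and 21.8 CPM in Rosa26-Lmo2+Sca1-Cre, against 21.9 to 28.3 CPM in WT. All 4 Sca1-Lmo2 libraries were far below every other library. The log2 fold change between the models was -4.81 (SE 0.43, adjusted p = 0.00156) and held. Over WT it was -4.70 (adjusted p = 0.000179) in Sca1-Lmo2 and 0.11 (adjusted p = 0.853) in Rosa26-Lmo2+Sca1-Cre. Eid2, an inhibitor of differentiation factors, had the same order, at 0.0865, 0.0809, 0.0452 and 0.0828 CPM in Sca1-Lmo2 and 11.9, 2.47 and 3.49 CPM in Rosa26-Lmo2+Sca1-Cre, against 1.89 to 3.96 CPM in WT (log2 fold change -6.27, SE 0.91, adjusted p = 0.00767, held). Mctp2, a membrane protein with C2 domains, did too, at 0.0903 to 0.352 CPM in Sca1-Lmo2 and 5.38 to 11.1 CPM in Rosa26-Lmo2+Sca1-Cre, against 3.67 to 5.97 CPM in WT (log2 fold change -5.28, adjusted p = 0.00309, held, and 0.015 with background reads subtracted, which would give 4.11 CPM in replicate 3 of Rosa26-Lmo2+Sca1-Cre).

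Another group of genes was low in Sca1-Lmo2 and well above WT in Rosa26-Lmo2+Sca1-Cre. Yap1 (chromosome 9, 7931999 to 8004596), the coactivator that the Hippo pathway restrains, stood at 0, 0.0607, 0.0452 and 0.311 CPM in Sca1-Lmo2 and 7.58, 14.8 and 20.8 CPM in Rosa26-Lmo2+Sca1-Cre, against 0.537 to 1.87 CPM in WT. The difference was -7.06 on the log2 scale (SE 1.06, adjusted p = 0.00822) and held. Its DNA-binding partner Tead1 stood at 0.346, 0.162, 0.61 and 0.518 CPM in Sca1-Lmo2 and 7.49, 18.9 and 7.6 CPM in Rosa26-Lmo2+Sca1-Cre (log2 fold change -4.79, SE 0.56, adjusted p = 0.00459, held). For both, the order of all 7 tumour libraries separated the models, and background reads in Rosa26-Lmo2+Sca1-Cre replicate 3 would give 1.3 CPM of Yap1 and 4.09 CPM of Tead1. With background subtracted the adjusted p were 0.0142 and 0.00976.

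Wnt4, a secreted signalling protein, was at 0.173, 0.202, 0.294 and 0.642 CPM in Sca1-Lmo2 and 6.79, 8.06 and 5.88 CPM in Rosa26-Lmo2+Sca1-Cre (log2 fold change -4.39, adjusted p = 0.00534, held). Dsp, which encodes the desmosome protein desmoplakin, was at 0.0865, 0.849, 0 and 0.29 CPM in Sca1-Lmo2 and 20.4, 79.8 and 1.3 CPM in Rosa26-Lmo2+Sca1-Cre, replicate 3 being only just above the Sca1-Lmo2 range (log2 fold change -6.76, adjusted p = 0.014, held). S100a11, a calcium-binding protein, was at 3.29, 3.92, 6.14 and 5.26 CPM in Sca1-Lmo2 and 125, 32.7 and 36 CPM in Rosa26-Lmo2+Sca1-Cre (log2 fold change -3.79, adjusted p = 0.00534, held). Yap1, Tead1, Wnt4 and Dsp are genes that epithelial and stromal cells are known to express, and S100a11 is widely expressed. The sums of the epithelial and stromal markers are given below, and the part of such cells in these differences was not tested.

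Jarid2, a partner of Polycomb repressive complex 2, was lower at a high level of expression, at 117, 75.9, 81.7 and 107 CPM in Sca1-Lmo2 and 393, 240 and 192 CPM in Rosa26-Lmo2+Sca1-Cre. Sca1-Lmo2 lay at the WT level of 84.9 to 108 CPM and Rosa26-Lmo2+Sca1-Cre above it (log2 fold change between the models -1.53, SE 0.25, adjusted p = 0.00952, held). Zc3h7a, which encodes a zinc finger protein, had 161, 148, 156 and 178 CPM in Sca1-Lmo2 and 595, 533 and 468 CPM in Rosa26-Lmo2+Sca1-Cre (log2 fold change -1.73, SE 0.23, adjusted p = 0.00652, held), with the models far apart.

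Among genes that rose, Zfp503 (chromosome 14, 21983962 to 21989601), a zinc finger repressor of development, stood at 27.1, 11.7, 24.5 and 1.74 CPM in Sca1-Lmo2 and 0, 0.321 and 0.299 CPM in Rosa26-Lmo2+Sca1-Cre, against 0.178 to 0.359 CPM in WT. Each Sca1-Lmo2 library was above all others, replicate 4 by the least (log2 fold change 6.27, SE 1.25, adjusted p = 0.0155, held). Adgrg5, an adhesion G protein-coupled receptor, stood at 40.5, 5.68, 35 and 23 CPM in Sca1-Lmo2 and 2.25, 1.48 and 0.817 CPM in Rosa26-Lmo2+Sca1-Cre, with 6.67 to 17.9 CPM in WT. Here it was Rosa26-Lmo2+Sca1-Cre that lay away from WT (Sca1-Lmo2 over WT 0.99 on the log2 scale with adjusted p = 0.292, and Rosa26-Lmo2+Sca1-Cre over WT -3.12 with adjusted p = 0.0163), and between the models the difference was 4.11 on the log2 scale (SE 0.83, adjusted p = 0.0156, held).

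Syde1, a GTPase-activating protein, stood at 62.9, 14.1, 73.6 and 88.3 CPM in Sca1-Lmo2 and 8.54, 6.91 and 6.22 CPM in Rosa26-Lmo2+Sca1-Cre (log2 fold change 3.05, adjusted p = 0.00952, held). Olfml3, a secreted olfactomedin-like protein, had tight libraries at 10.1, 11.4, 9.04 and 12.6 CPM in Sca1-Lmo2 and 1.66, 2.44 and 1.61 CPM in Rosa26-Lmo2+Sca1-Cre (log2 fold change 2.50, SE 0.33, adjusted p = 0.00672, held). Uaca, a coiled-coil protein linked to cell death, stood at 89, 170, 75.1 and 32.9 CPM in Sca1-Lmo2 and 1.41, 6.1 and 15.5 CPM in Rosa26-Lmo2+Sca1-Cre (log2 fold change 3.58, adjusted p = 0.0187, and 0.0505 without Rosa26-Lmo2+Sca1-Cre replicate 2). In all 3 genes the models did not overlap, and the WT levels of Syde1 (8.36 to 9.6 CPM) and Olfml3 (1.03 to 1.81 CPM) lay near those of Rosa26-Lmo2+Sca1-Cre.

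Dnmt1 (chromosome 9, 20907206 to 20959888), the maintenance DNA methyltransferase, stood at 445, 293, 224 and 251 CPM in Sca1-Lmo2 and 65.1, 99.8 and 107 CPM in Rosa26-Lmo2+Sca1-Cre, with WT in between at 110 to 214 CPM. Every Sca1-Lmo2 library was above every WT library and every Rosa26-Lmo2+Sca1-Cre library below (log2 fold change 1.74, SE 0.31, adjusted p = 0.0113, held). Over WT the log2 fold change was 0.84 (adjusted p = 0.0421) in Sca1-Lmo2 and -0.90 (adjusted p = 0.0415) in Rosa26-Lmo2+Sca1-Cre. Uhrf1, which brings DNMT1 to new DNA, also rose (1.38, adjusted p = 0.0234, and 0.0701 without Sca1-Lmo2 replicate 1).

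Timeless, a replication fork protein, had 113, 57, 89.8 and 66.4 CPM in Sca1-Lmo2 and 26.8, 25.6 and 24.2 CPM in Rosa26-Lmo2+Sca1-Cre (log2 fold change 1.68, adjusted p = 0.00952, held). Hnrnpd, a protein that binds AU-rich RNA, had 282, 278, 266 and 241 CPM in Sca1-Lmo2 and 113, 127 and 134 CPM in Rosa26-Lmo2+Sca1-Cre (log2 fold change 1.10, SE 0.16, adjusted p = 0.00767, held), with a span that overlaps Gm17092. Adgre5 (CD97), an adhesion receptor of leucocytes, had 187, 166, 160 and 164 CPM in Sca1-Lmo2 and 53.8, 86.5 and 55.6 CPM in Rosa26-Lmo2+Sca1-Cre, against 128 to 165 CPM in WT (log2 fold change 1.37, adjusted p = 0.00767, held), with a span that overlaps Ddx39. In these genes too no library of either model reached the range of the other.

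**Figure D3:**
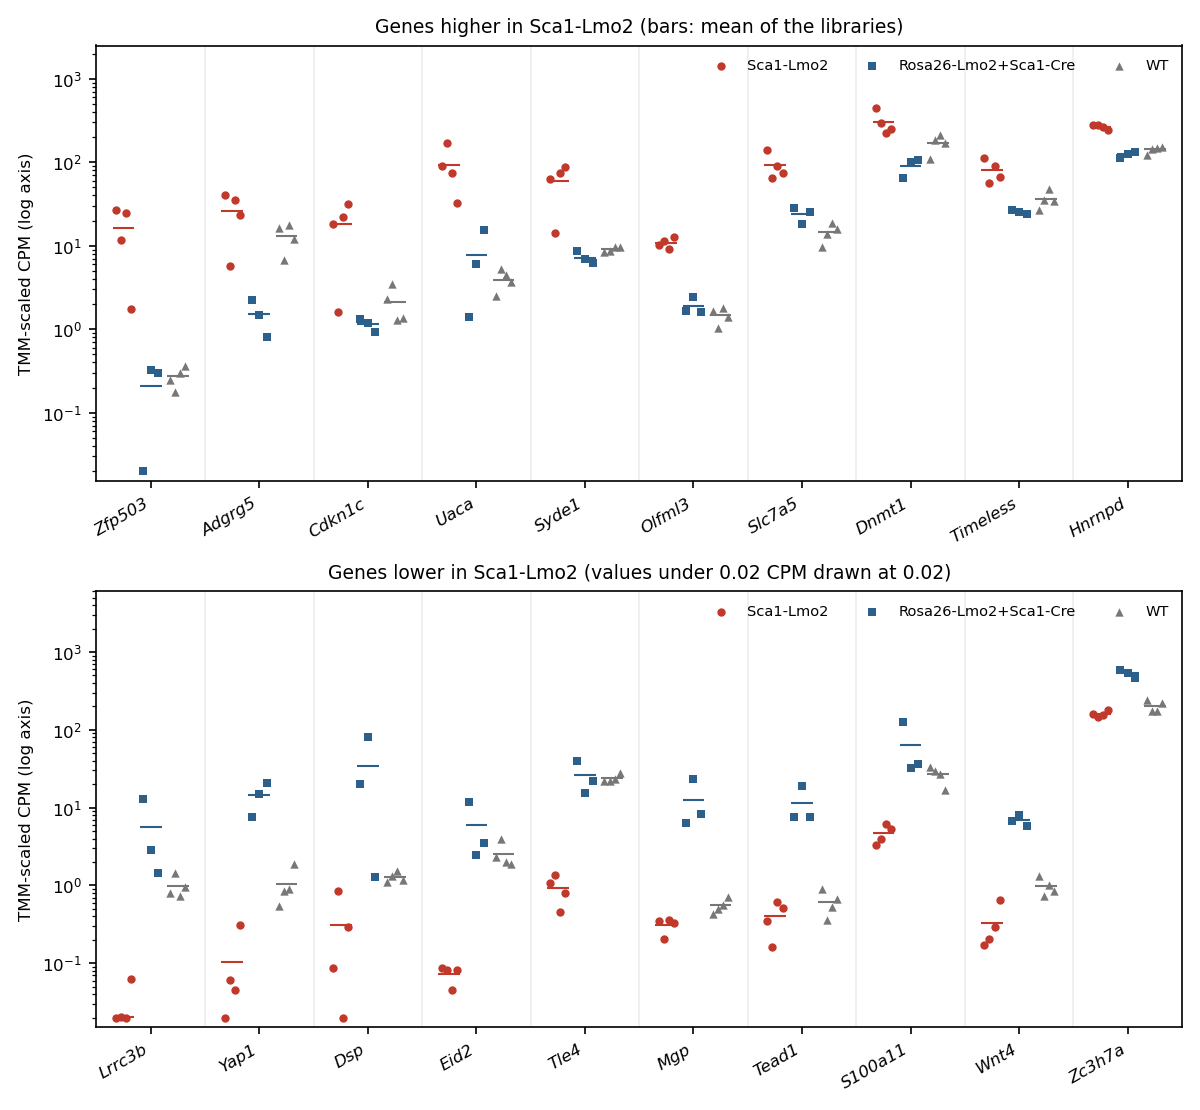
TMM-scaled CPM (log axis) of each library, as points, with the mean as a bar, for 10 genes higher (upper panel) and 10 genes lower (lower panel) in Sca1-Lmo2 (red, left) than in Rosa26-Lmo2+Sca1-Cre (blue, middle), with WT in grey at the right and values under 0.02 CPM drawn at 0.02. Tle4 is at 1.35 CPM or less in Sca1-Lmo2 and at 15.5 CPM or more in each library of both other groups, while Yap1 and Tead1 are high in Rosa26-Lmo2+Sca1-Cre alone.

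Many markers of cells other than thymocytes were lower in Sca1-Lmo2. Of 18 genes of dendritic cells and MHC class II, 9 fell and 0 rose (50%, against 6.3% of all genes), with a median of -1.93. H2-Ab1, an MHC class II chain, stood at 9.28, 18.2, 12.2 and 16.2 CPM in Sca1-Lmo2 and 60.9, 90.7 and 55.1 CPM in Rosa26-Lmo2+Sca1-Cre, against 40.4 to 64.3 CPM in WT (log2 fold change -2.30, adjusted p = 0.00709, held). The sum over the 18 genes was 143.03 to 239.64 CPM in Sca1-Lmo2, below the 486.59 to 636.96 CPM of Rosa26-Lmo2+Sca1-Cre and the 357.91 to 587.27 CPM of WT, and so did not overlap. Without Sca1-Lmo2 replicate 1, 4 of the 18 passed.

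Of 12 tested stroma and fibroblast markers 6 fell (50%, against 6.3% of all genes) and 0 rose (median -2.92). Sums over the 12 were 31.983 to 182.63 CPM in Sca1-Lmo2 and 107.7 to 206.38 CPM in Rosa26-Lmo2+Sca1-Cre, against 10.199 to 18.224 CPM in WT. Col3a1, a fibrillar collagen, stood at 1.82, 0.93, 0.519 and 2.42 CPM in Sca1-Lmo2 and 7.89, 22.8 and 16.8 CPM in Rosa26-Lmo2+Sca1-Cre (log2 fold change -3.47, adjusted p = 0.00952, held), and Mgp, a matrix protein, at 0.202 to 0.361 CPM in Sca1-Lmo2 and 6.34 to 23.2 CPM in Rosa26-Lmo2+Sca1-Cre (log2 fold change -5.34, adjusted p = 0.00258, held). Of 11 tested thymic epithelial markers 4 fell (36.4%, against 6.3% of all genes) and 0 rose (median -1.93). Sums over the 11 were 39.032 to 59.825 CPM in Sca1-Lmo2 and 46.611 to 136.66 CPM in Rosa26-Lmo2+Sca1-Cre, and the defining Foxn1 and Fezf2 were at 0 counts in all Sca1-Lmo2 libraries. These sums overlapped although single members did not. Without Sca1-Lmo2 replicate 1, 4 stroma markers and 1 epithelial marker passed, and without Sca1-Lmo2 replicate 3 or Rosa26-Lmo2+Sca1-Cre replicate 1, 1 and 2 epithelial markers did.

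Of 20 macrophage and monocyte markers 5 fell (25%, against 6.3% of all genes, median -1.89). Their sums were 170.08 to 621.05 CPM in Sca1-Lmo2 and 581.39 to 1474 CPM in Rosa26-Lmo2+Sca1-Cre. Without 1 library 2 to 9 of them passed, fewest without Sca1-Lmo2 replicate 1 and most without Sca1-Lmo2 replicate 4 or Rosa26-Lmo2+Sca1-Cre replicate 3. Of 11 tested neutrophil markers 3 fell (27.3%, median -3.06). Sums over the 11 were 42.72 to 72.639 CPM in Sca1-Lmo2 and 44.82 to 1703.2 CPM in Rosa26-Lmo2+Sca1-Cre. S100a8, a neutrophil calcium-binding protein, was at 6.9 to 14.3 CPM in Sca1-Lmo2 and at 13.5, 55 and 521 CPM in replicates 1, 2 and 3 of Rosa26-Lmo2+Sca1-Cre. Without replicate 3 of Rosa26-Lmo2+Sca1-Cre, or without any 1 of Sca1-Lmo2 replicates 1 to 3, 0 of the 11 passed, and in that first case their median was 0.12. By edgeR's test 0 of 19 B cell markers and 0 of 8 plasma cell markers passed, against 9.89% of all genes. At an unadjusted p under 0.05 there were 3 and 0, and DESeq2 called 1 B cell marker. Of 5 tested adipocyte markers 3 fell (60%), but 0 without Sca1-Lmo2 replicate 1 or with the pair merged and 1 without Sca1-Lmo2 replicate 2 or 3. Of 14 markers of NK and cytotoxic cells 1 fell (7.14%, near the 6.3% of all genes) and of 9 erythroid markers 1 fell (11.1%). Neither list had a call without Sca1-Lmo2 replicate 1, nor the erythroid one without Rosa26-Lmo2+Sca1-Cre replicate 1. Of 6 tested endothelial markers 1 rose and 1 fell (16.7% each, against 3.59% and 6.3% of all genes). The share of such cells in any difference above was not tested.

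**Figure D4:**
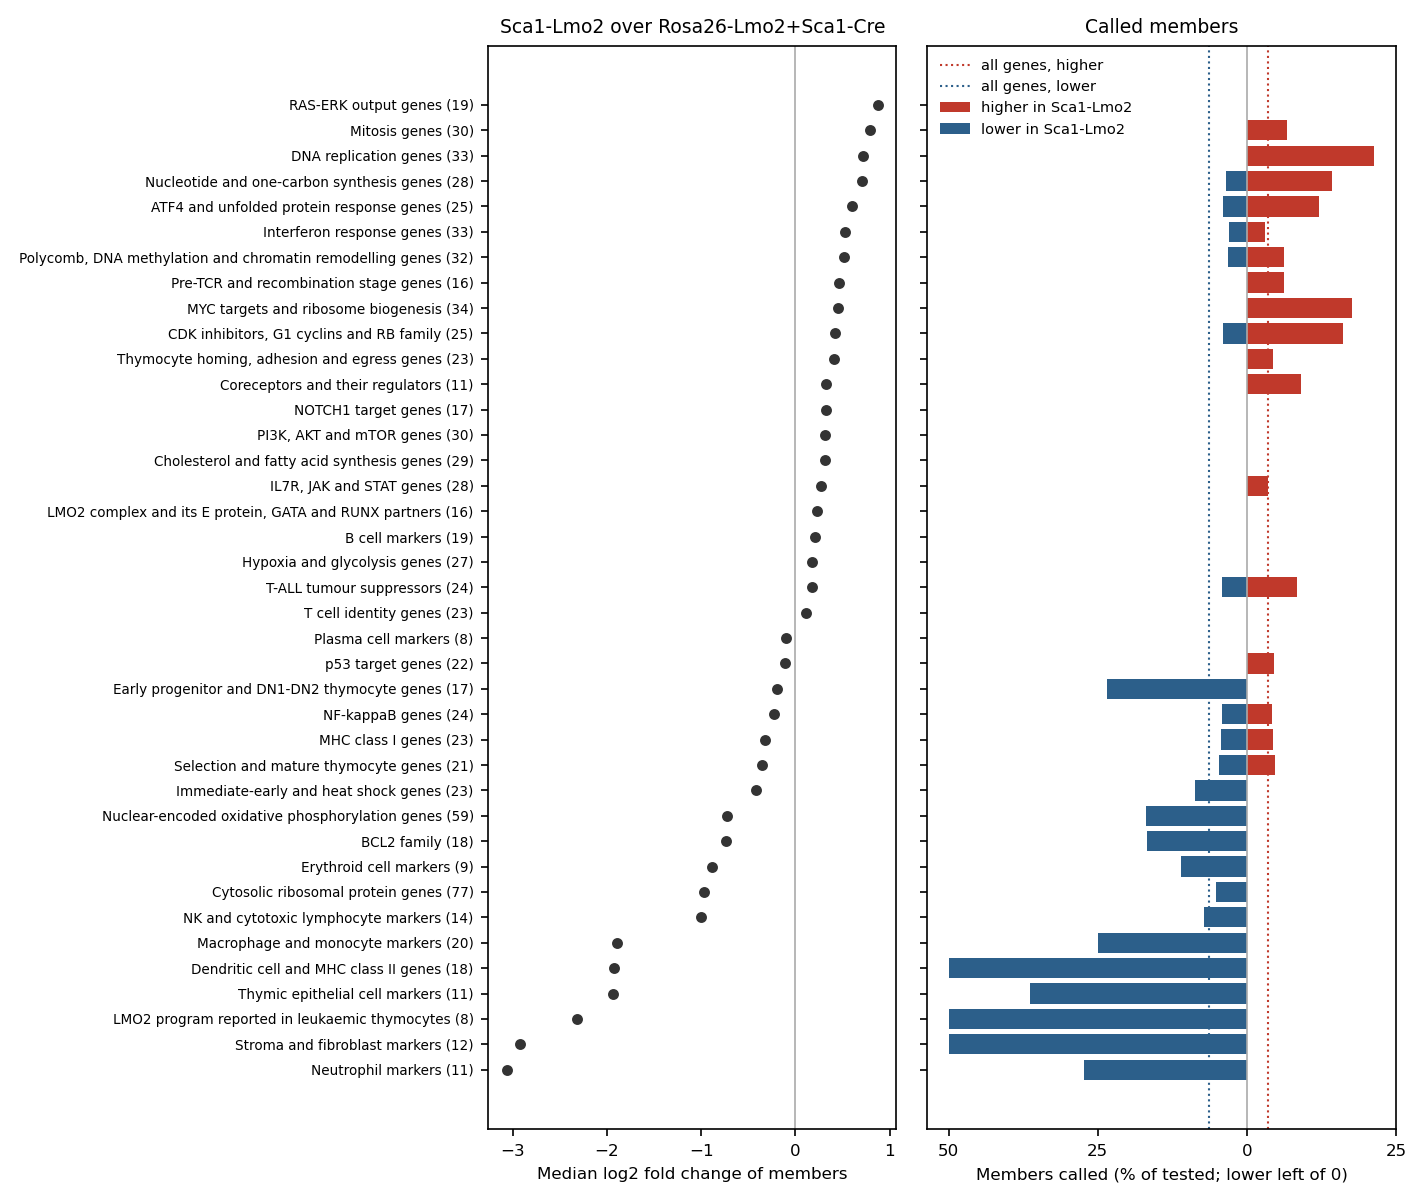
Left, median log2 fold change (x axis) of the tested members of each gene list (y axis, number tested in brackets), Sca1-Lmo2 over Rosa26-Lmo2+Sca1-Cre. Right, percent of members called higher (red, right of 0) and lower (blue, left of 0), with dotted lines at 3.59% and 6.3% for all genes. DNA replication genes reach 21.2% higher, while the LMO2 program, stroma and MHC class II lists each have 50% lower.

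Long genes were common among those that fell. Of 446 tested genes with a span over 300000 bases, 127 fell (28.5%, against 6.3% of all genes) and 3 rose (0.673%, against 3.59%). The median span was 26137 bases for genes that fell, 17922.5 for genes that rose and 17832 for all tested. Counts were taken over whole gene spans, introns included, so background reads such as those of Rosa26-Lmo2+Sca1-Cre replicate 3 would add most to long genes. Whether such reads are the cause of the calls of long genes was not tested. With background reads subtracted in proportion to span, 26 long genes were lower (5.83%, against 4.21% of all genes in that fit) and 5 higher (1.12%, against 2.65%). Without replicate 3, 87 were lower (19.5%, against 7.84%) and 9 higher (2.02%, against 4.8%). Nrxn3, a synaptic adhesion protein, stood at 0.195, 0.263, 0.248 and 0.0828 CPM in Sca1-Lmo2. In Rosa26-Lmo2+Sca1-Cre it stood at 0.958, 2.41 and 24.9 CPM, where background would give 29 CPM in replicate 3. Its call (adjusted p = 0.0113) was lost on subtraction (0.554), as was that of the SOX family factor Sox6 (adjusted p = 0.00652, and 0.059 on subtraction). With subtraction 1171 genes passed in all, and 436 of the 614 genes higher and 716 of the 1076 genes lower kept their call.

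By chromosome, the genes of chromosomes 14 and 15 stood apart from the rest. The median log2 fold change over all tested genes was 0.252 on chromosome 14 (725 genes, 44 higher and 36 lower) and 0.288 on chromosome 15 (603 genes, 44 higher and 27 lower), against -0.181 to 0.126 on every other chromosome. Genes called higher made up 6.07% of chromosome 14 and 7.3% of chromosome 15, against 3.59% of all genes. Those called lower made up 4.97% and 4.48%, against 6.3%. With 1 library left out the medians lay between 0.12 and 0.396 on chromosome 14 and between 0.225 and 0.469 on chromosome 15. With Sca1-Lmo2 replicates 1 and 3 merged they were 0.155 and 0.266. Set against the WT mean, the median of chromosome 15 was 0.581, 0.105, 0.595 and 0.563 in the Sca1-Lmo2 libraries and -0.031, 0.428 and -0.078 in those of Rosa26-Lmo2+Sca1-Cre. So 3 of 4 Sca1-Lmo2 libraries and 1 of 3 Rosa26-Lmo2+Sca1-Cre libraries were high for that chromosome, which also carries Myc. The high Sca1-Lmo2 libraries include replicates 1 and 3, which share receptor segments and may not be independent. For chromosome 14 the medians were 0.671, 0.246, 0.528 and 0.042 in Sca1-Lmo2 and 0.019, 0.068 and -0.057 in Rosa26-Lmo2+Sca1-Cre, highest in replicates 1 and 3, the pair with shared receptor segments. Single libraries were high elsewhere, at 0.362 on chromosome 6 in Sca1-Lmo2 replicate 4 and 0.315 on chromosome 18 in replicate 1. Copy number was not tested.

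**Figure D5:**
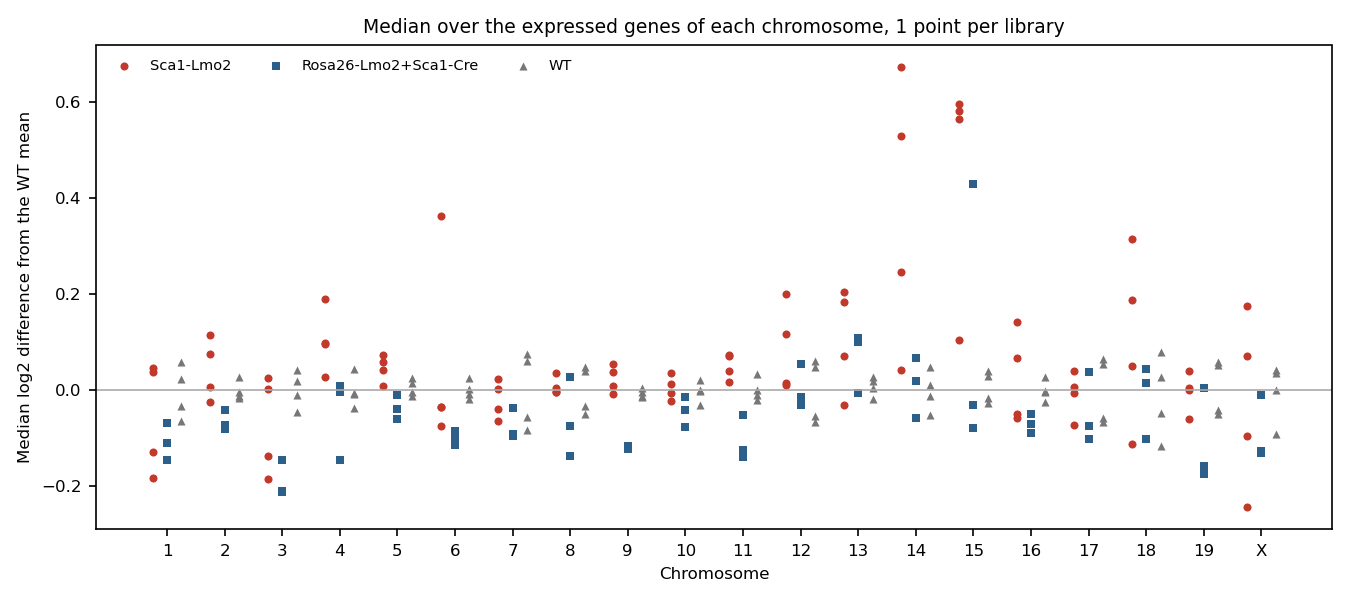
Median log2 difference from the WT mean (y axis) over the expressed genes of each chromosome (x axis), 1 point per library, for Sca1-Lmo2 (red), Rosa26-Lmo2+Sca1-Cre (blue) and WT (grey). On chromosome 15, 3 Sca1-Lmo2 libraries lie between 0.563 and 0.595 and 1 Rosa26-Lmo2+Sca1-Cre library at 0.428, and on chromosome 14 the highest are 2 Sca1-Lmo2 libraries at 0.671 and 0.528.

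Over all tested genes, Spearman correlations between libraries, given as a description, had a median of 0.931 within Sca1-Lmo2 (0.906 to 0.966) and 0.9 within Rosa26-Lmo2+Sca1-Cre (0.87 to 0.918), against 0.882 between the models (0.854 to 0.919) and 0.963 to 0.99 within WT. The ranges within Rosa26-Lmo2+Sca1-Cre and between the models overlapped.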

How the data were processed

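RNA of frozen thymus was sequenced as paired reads from a kit that does not keep strand, and aligned to mm10 with TopHat2 2.1.0 per the labels and methods. The authors deposited raw read counts per Ensembl gene over the whole gene span, introns included, so reads of overlapping genes cannot be told apart. Of 46948 lines 46946 were kept after repeated lines were dropped. Mitochondrial genes were not analysed here.

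Counts were tested with the edgeR 4.0.16 quasi-likelihood F-test (R 4.3.3, two-sided, Benjamini-Hochberg over 17087 genes, called at an adjusted p under 0.05) on all 5 groups with TMM scaling. DESeq2 1.42.0, limma-voom (limma 3.58.1), no TMM, other filters, only the 2 groups, sex, gene span and replicate number as terms, a merged pair, background subtraction (per kilobase, from 1404 olfactory and vomeronasal receptor genes) and each library left out served as alternatives. Subtraction, the fit without WT and the 2-group DESeq2 and limma-voom fits were chosen after seeing the data. The script was tested on simulated data that gave every group the same spread, near that of WT. That test does not cover groups of unequal spread, as found here. Nothing in the labels says how the mice were related, so p-values speak for these samples only. In the reported fit they rest on a spread shared by all 14 libraries, WT included, and not on that of the tumour libraries alone. Wilson intervals cover counting error only.

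The members and the 42 gene lists were chosen with earlier results of these data known. Named genes were the study's genes, the 15 largest changes and 10 smallest adjusted p in each direction without overlap and with a mean log2 CPM of 2 or more, and up to 3 called members per list, some left out for length and 1 gene not reported here. Spi1, Kit, Lyl1, Nfe2, Mcm3, Mcm5, Mcm7 and Cdc6 were named after their values were seen.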

Additional observations from a re-analysis of the deposited data

Results flagged for a closer look

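In a group of 4 libraries, 1 library stood apart from the others, relative to their spread, for 3 of the genes described. Chance alone gives such a gap in about 1 of 20 groups, and many groups were searched. Myc was at 76.8 CPM in Sca1-Lmo2 replicate 4, against 186 to 205 CPM in the other 3. Eid2 was at 0.0452 CPM in Sca1-Lmo2 replicate 3, against 0.0809 to 0.0865 CPM in the other 3, a difference of few counts. Nrxn3 was at 0.258 CPM in WT replicate 2, against 0.227 CPM in the other 3, likewise a difference of few counts.

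Outside the comparison, Cdkn2a, which encodes the p16 and p19 tumour suppressors, was at 298 and 384 CPM in the 2 libraries of Rosa26-Lmo2+Mb1-Cre and at 112 CPM in the library of Rosa26-Lmo2+Aid-Cre, against 0.189 to 0.289 CPM in WT. It was at 2.47 to 8.26 CPM in Sca1-Lmo2 and 0.129 to 5.86 CPM in Rosa26-Lmo2+Sca1-Cre, which overlapped (adjusted p = 0.367).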

How the results depend on the processing

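The number of genes called depended on the fit. In place of 1690 genes (614 higher and 1076 lower in Sca1-Lmo2), 3603 passed with DESeq2 (1532 and 2071), 1070 with limma-voom (415 and 655), 3902 on unfiltered genes (1104 and 2798), 683 after merging Sca1-Lmo2 replicates 1 and 3 (242 and 441), 82 without WT in the fit (18 and 64), and 0 in either direction with only the 2 groups in edgeR or in limma-voom, where 3540 genes had an unadjusted p under 0.05. With 1 library left out, 336 to 2161 genes passed, 98 to 854 higher and 238 to 1340 lower. Deviations of same-numbered libraries of the models correlated at 0.023, 0.034 and -0.28, and those of differently numbered ones at -0.163 to 0.186. So few values cannot settle whether the numbers pair the libraries, and the labels do not say so. A fit with the replicate number as a block called 8 genes, 3 higher and 5 lower.

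Of 58 named genes over 21 alternatives, the direction turned for Cd4 alone, whose log2 fold change of 0.00 became -0.02 with DESeq2 or a filter on the 7 tumour libraries, -0.08 with sex as a term, -0.17 with gene span, -0.04 with background subtracted, -0.01 with DESeq2 on the 2 groups, and -0.56 to 0.57 with 1 library left out. Many of the named genes were picked because they were called and their libraries did not overlap. Their direction could therefore hardly turn, and its stability is no measure for other genes. The adjusted p of Lmo2 stayed above 0.05 throughout. The median of chromosome 15 became 0.534 without TMM, while that of all genes became 0.202. In the 2-group edgeR fit 49 named genes lost their call. The limit that depth sets was not tested.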
